A study of Homo sapiens with 12 samples.

Results

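The human mitochondrial genome is a small circle that is present in many copies per cell and carries 37 genes. In the ATAC-Seq count table of HEK293T cells these genes were the entries with a gene symbol starting with MT-, 37 of 52889 entries, split by symbol into 22 tRNA genes, 2 rRNA genes and 13 protein genes. Mitochondrial DNA is not wrapped in nucleosomes, so the transposase of ATAC-Seq, which cuts and tags open DNA, reaches it easily, and mitochondrial reads are a familiar by-product of such libraries. The genes lie almost end to end and are transcribed as long precursors from both strands, the heavy strand serving most of them and the light strand the gene MT-ND6 and several tRNA genes. The tRNA genes sit between the larger genes, and cutting the precursor at the tRNAs releases the rRNAs and mRNAs. The protein genes encode subunits of the respiratory chain, in complexes I, III and IV and in the ATP synthase (complex V).

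HEK293T is a human embryonic kidney cell line, which was stably transfected with Sleeping Beauty transposon vectors to model the fusion genes of the t(4;11) translocation, MLL-AF4 and AF4-MLL. The 12 samples formed 4 groups of 3 biological replicates. Mock cells carried the empty vector pSBTet-GP, and d0 cells expressed MLL-AF4 constitutively. In d3 cells AF4-MLL, brought in by transient transfection, had been induced on top of MLL-AF4 with 1 µg/ml doxycycline for 48 h. The d28 cells are labelled with constitutive MLL-AF4 alone. They had been through the same induction, after which doxycycline was withdrawn and the culture continued for several weeks. The same doxycycline step stands in the labels of every sample, and the harvest day of Mock cells is not given in the sources used here. All 4 groups are transfected populations of 1 cell line, and the labels do not say whether biological replicates came from separate transfections, so p-values measure the spread between these samples only.

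Total counts per sample lay between 353430 and 3539937 and were lowest in Mock and highest in d28 cells. The d3 and d28 samples overlapped, so total depth and group cannot be told apart outside that pair. In the overlap, d28 replicate 3 had 1058754 counts with a mitochondrial share of 64.5%, and d3 replicate 1 had 1186209 with 44.1%. These totals include the mitochondrial counts. Without them and nuclear copies of mitochondrial genes, sums were 249240 to 356702 in Mock and 325177 to 369255 in d0 samples. They were 552222 to 613989 in d3 and 312606 to 890525 in d28 samples. On these sums d28 overlapped each other group, and d0 overlapped Mock. Mock replicate 1, with 306019, had 382 mitochondrial counts per 1000 of them, and d28 replicate 3, with 312606, had 2183. In the gene KMT2A (MLL), whose sequence the fusion constructs carry, normalized counts were 27.1 to 31.4 in Mock, 31.1 to 44.8 in d0, 54.7 to 66.6 in d3 and 67.5 to 89.7 in d28 cells. For AFF1 (AF4), the other partner gene, they were 40.4 to 59.1, 62.2 to 79.4, 53.9 to 65.8 and 62.8 to 68.4, and its d3 samples overlapped Mock. Across all samples 10 genes of kidney or of this line had medians of 4.24 to 88.7 normalized counts, with a middle value of 22.4. For 7 blood cell genes the medians were 0.924 to 22.3 with a middle value of 10.7, near the 10.3 of all tested entries, so these markers did not separate the lineages clearly in gene-wide accessibility counts. Although the protocol in the labels speaks of RNA purification, the assay is treated here as ATAC-Seq.

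The mitochondrial share of all counts was lowest in Mock cells and highest in d28 cells. It was 26.9%, 26.4% and 27.0% in the 3 Mock samples, 44.3%, 45.6% and 42.0% in d0, 44.1%, 41.4% and 32.8% in d3, and 68.5%, 63.6% and 64.5% in d28 samples. In d3 cells, replicate 3 stood apart from the other replicates with the value of 32.8%, so some results that rest on d3 are also given without it. The d0 and d3 samples overlapped, and Mock and d28 samples lay outside the range of each other group. For the smallest library, Mock replicate 3, the 95% Wilson interval of the share was 26.9% to 27.2%, and such intervals cover counting error only, since reads are not independent molecules. Set against all counts that were neither mitochondrial nor from nuclear copies of mitochondrial genes, there were 372 to 384 mitochondrial counts per 1000 other counts in Mock, 776 to 910 in d0, 510 to 853 in d3 and 2084 to 2721 in d28 cells. More copies of the genome per cell, more mitochondria carried along with the nuclei and easier access to the same copies cannot be told apart in these counts.

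Within the mitochondrial counts the 3 gene classes kept nearly the same proportions in every group. The 13 protein genes took 74.7% ± 0.107 (SD, n = 3) in Mock, 76.4% ± 0.246 in d0, 76.1% ± 0.375 in d3 and 75.8% ± 0.254 in d28 cells. All 9 samples with fusion genes lay above the 3 Mock samples, whose highest value was 74.8%. The 2 rRNA genes moved the other way, with 18.6% ± 0.0660 in Mock against 17.0% ± 0.212 in d0, 17.2% ± 0.182 in d3 and 17.1% ± 0.167 in d28 cells. No Mock sample fell below 18.5% and no other sample exceeded 17.3%. The 22 tRNA genes held 6.72% ± 0.0919, 6.58% ± 0.0679, 6.73% ± 0.201 and 7.15% ± 0.102 in the same order of groups. Here d28 cells stood apart, with a lowest sample of 7.07% against a highest sample of 6.90% elsewhere. These shares sum to a whole, so a fall in one class forces a rise in the others, and with 3 samples against 3 an exact permutation test cannot go below p = 0.1, so no test was made on them.

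**Figure D1:**
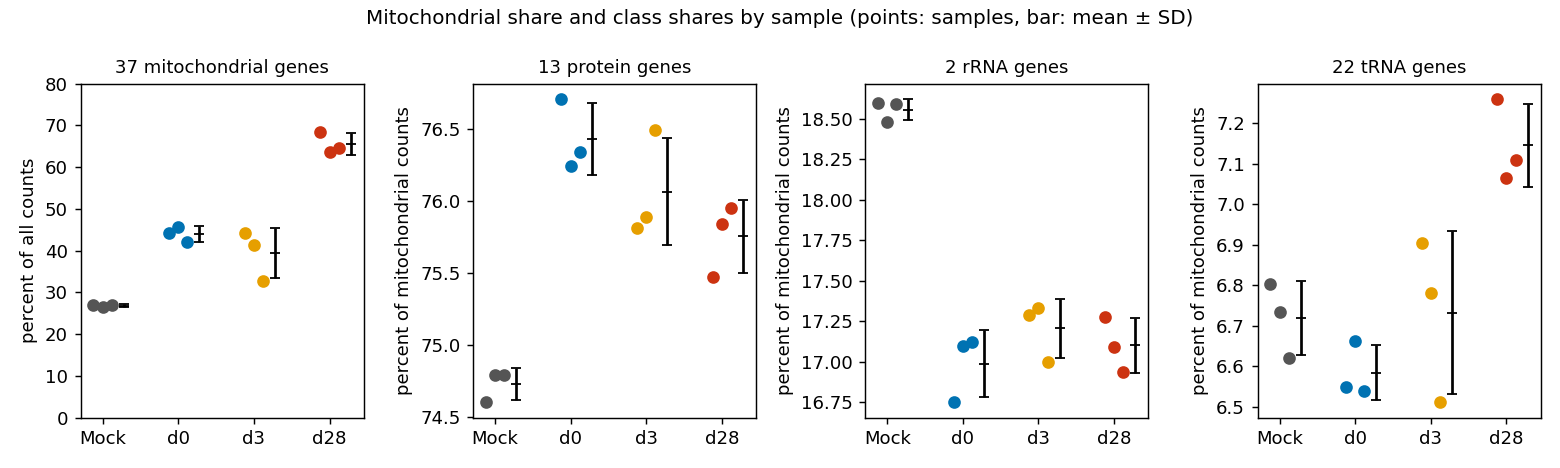
Mitochondrial share of all counts (left, percent) and the shares of the 13 protein, 2 rRNA and 22 tRNA genes within the mitochondrial counts (percent, axes not starting at 0), with a point per sample and the mean ± SD of each group. The rRNA share was 18.5% to 18.6% in Mock and 16.8% to 17.3% in all other samples, and the tRNA share was highest in the 3 d28 samples.

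By length, the rRNA genes did not dominate, and the light-strand genes were covered about as densely as the heavy-strand genes. The 2 rRNA genes make up 16.3% of the annotated gene bases, the protein genes 73.9% and the tRNA genes 9.78%. Per kilobase, the rRNA genes held 7.38% of mitochondrial counts in Mock and 6.81% in d28 cells, the protein genes 6.56% and 6.65%, and the tRNA genes 4.46% and 4.74%. Over the 15 rRNA and protein genes, the ratio of the highest to the lowest density was 1.77 in Mock, 1.55 in d0, 1.60 in d3 and 1.85 in d28 cells. The lowest density passed from MT-ATP8, a small ATP synthase subunit, at 4.55% per kilobase in Mock to MT-ND4L, a small subunit of complex I, at 4.43% in d28 cells. The highest passed from MT-CYB, the cytochrome b of complex III, at 8.05% in Mock to MT-ND5, a large subunit of complex I, at 8.17% in d28 cells.

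The 9 genes on the light strand gained share as a sum in the cells with fusion genes, but not gene by gene. Their summed share was 6.58%, 6.53% and 6.32% in the Mock samples, 6.86%, 6.91% and 6.82% in d0, 7.14%, 6.91% and 6.89% in d3, and 7.16%, 7.08% and 7.08% in d28 samples. Every sample of the other groups therefore lay above all Mock samples. Per kilobase this was 6.01% in Mock, 6.37% in d0, 6.48% in d3 and 6.60% in d28 cells, while the 28 heavy-strand genes went from 6.52% in Mock to 6.48% in d28 cells. Of the light-strand genes, MT-ND6 alone had mean shares of 2.74% in Mock, 3.24% in d0, 3.24% in d3 and 3.23% in d28 cells. At d0, MT-TP, MT-TA, MT-TN and MT-TC had lower mean shares than in Mock, and MT-TQ, MT-TY, MT-TS1 and MT-TE higher ones. The division by strand follows the known gene map, and whether strand was used in counting is not given in the sources used here.

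Within the respiratory chain, complex I genes accounted for most of the protein class. The 7 complex I genes held 40.8% ± 0.113 of mitochondrial counts in Mock and 42.1% ± 0.229, 42.0% ± 0.267 and 42.1% ± 0.129 in d0, d3 and d28 cells, with every Mock sample below all others. The 3 complex IV genes stayed between 20.1% and 20.6% in all 12 samples and MT-CYB between 9.01% and 9.31%. Complex V, with MT-ATP6 and MT-ATP8, was at 4.40% ± 0.0528 in Mock, 4.66% ± 0.0178 in d0, 4.60% ± 0.0299 in d3 and 4.37% ± 0.00780 in d28 cells. Its d0 and d3 samples lay above those of Mock and d28, which overlapped.

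**Figure D2:**
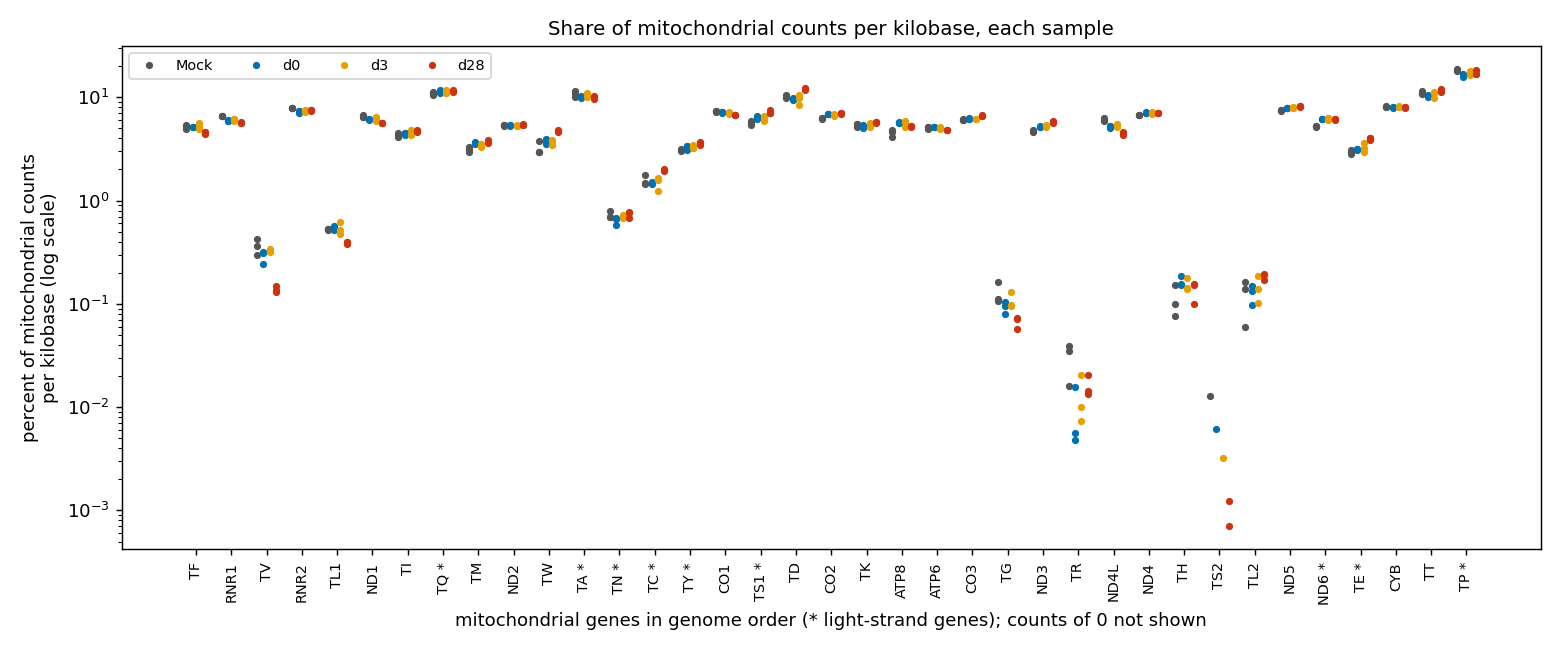
Share of mitochondrial counts per kilobase (percent, log scale) of the 37 genes in genome order, with a point per sample coloured by group. The rRNA and protein genes lie close together, with a ratio of highest to lowest of 1.77 in Mock and 1.85 in d28 cells, while 7 tRNA genes lie far below them.

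The tRNA genes spanned a far wider range than the longer genes. The most counted were MT-TP, MT-TQ and MT-TD, the genes of the tRNAs for proline, glutamine and aspartate, with mean counts of 6896, 4739 and 4426 over the 12 samples. The least counted were MT-TS2, the second serine tRNA gene, with 5 counts in all samples together, MT-TR, the arginine tRNA gene, with 74, and MT-TG, the glycine tRNA gene, with 381. In Mock replicate 3 a count of 0 for MT-TS2 allows, taken as 3 counts, a share of up to 0.00314% of mitochondrial counts. MT-TR was sparse as well outside d28, with 3, 3 and 1 in Mock, 1, 3 and 1 in d0, 7, 2 and 2 in d3, and 32, 13 and 6 in d28 samples.

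This range followed the room around each tRNA gene on its own strand. In 7 of the 22 tRNA genes another gene of the same strand lies within 10 bases on both sides, and these 7 (MT-TV, MT-TL1, MT-TG, MT-TR, MT-TH, MT-TS2 and MT-TL2) had mean counts of 0.417 to 193. The 12 tRNA genes with such a neighbour on 1 side had mean counts of 309 to 4426, and the 3 with none (MT-TQ, MT-TS1 and MT-TP) 2773 to 6896. The groups with 2 and with 1 close neighbour did not overlap. With neighbours on either strand counted, they did: 16 genes had close neighbours on both sides, and their mean counts ran from 0.417 to 4739. For example, MT-TV, the valine tRNA gene (GRCh38 chromosome MT, 1602 to 1670), abuts both rRNA genes without a gap and had 24 to 39 counts in Mock, whereas MT-TD (7518 to 7585), which abuts a gene of its own strand on 1 side only, had 643 to 900. The 7 enclosed genes cover 3.09% of the annotated gene bases and held 0.0913% ± 0.00809 of the mitochondrial counts in Mock, 0.0884% ± 0.00105 in d0, 0.0923% ± 0.00578 in d3 and 0.0669% ± 0.00312 in d28 cells. The distance of 10 bases was chosen after the values had been seen, and how reads that touch more than 1 gene were counted is not given in the sources used here.

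**Figure D3:**
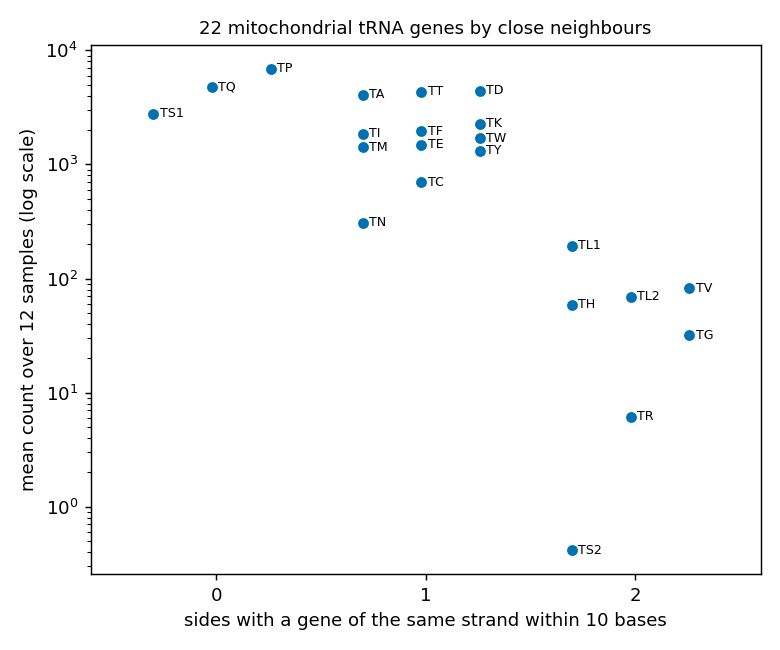
Mean count over the 12 samples (log scale) of each of the 22 tRNA genes, by the number of sides on which a gene of the same strand lies within 10 bases. The 7 genes with neighbours on both sides lie between 0.417 and 193, below the 309 to 4426 of the 12 genes with 1 such side.

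The first set of comparisons asked how far each gene rose between groups when libraries were scaled by TMM factors over all tested entries. Of the 37 genes, 36 passed the filter on low counts and MT-TS2 did not. In d0 against Mock cells 34 of 36 genes were higher by edgeR's quasi-likelihood test at a Benjamini-Hochberg adjusted p below 0.05, where 0.413% of all tested entries were called higher. In d3 against Mock cells 33 were higher (0.834% of all entries), and in d28 against Mock cells 36 (0.845%). None of the 36 was called lower in any of these comparisons, which share the same Mock samples. Since the gene classes kept nearly the same proportions, these calls largely repeat the rise in mitochondrial share and are not separate results. With library sizes alone and no factors, 32, 30 and 33 genes were called higher (0.221%, 0.236% and 0.236% of all entries). The median log2 fold change over the 36 genes was 1.17, 0.94 and 2.70, against medians of -0.00165, 0.0278 and 0.0322 over all tested entries. By class, the medians were 1.15, 0.95 and 2.73 for tRNA genes, 1.03, 0.83 and 2.50 for rRNA genes and 1.20, 0.97 and 2.69 for protein genes.

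Between the later days, the same scale gave a rise at d28 and no call between d0 and d3. In d28 against d3 cells 36 of 36 genes were higher (0.254% of all entries) with a median of 1.72, and in d28 against d0 cells 35 (0.682%) with a median of 1.51. In d3 against d0 cells 0 of 36 genes were called in either direction (0.91% of all entries), 2 had an unadjusted p below 0.05, and DESeq2 called 0 as well (0.479% of the entries it tested). The median was -0.21 there, and it was -0.02 without d3 replicate 3. Without that sample the medians of d3 against Mock and of d28 against d3 cells were 1.14 and 1.54. In each, 34 genes were called, beside 233 and 82 of all 27579 entries in either direction. MT-TR passed narrowly at d28 against Mock cells (adjusted p by edgeR = 0.0498) on Mock counts of 1 to 3, and its call was lost without d28 replicate 1 (0.423) and without any 1 of the Mock samples (0.108 to 0.212). The genes not called were MT-TG and MT-TR at d0, MT-RNR2, MT-TG and MT-TR at d3, and MT-TV in d28 against d0 cells.

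Single genes show the size of these steps. MT-CO1, the catalytic core subunit of complex IV, had normalized counts of 19740, 19060 and 20080 in Mock, 43590, 45800 and 39380 in d0, 42520, 38740 and 26600 in d3, and 132400, 100700 and 102100 in d28 samples. No group overlapped Mock, and d3 replicate 3 was the lowest sample outside Mock. Against Mock cells its log2 fold change was 1.13, 0.87 and 2.51 in d0, d3 and d28 cells (SE 0.249, 0.248 and 0.260), with adjusted p by edgeR of 0.00194, 0.0381 and 2.02e-19. At d3 the call was lost when the fit held the 6 samples of these groups only (adjusted p = 0.192) and when any Mock sample or d3 replicate 1 or 2 was left out (0.0931 to 0.212), and at d0 without Mock replicate 1 (0.0531) or 2 (0.0731). MT-RNR2, the 16S rRNA gene of the mitochondrial ribosome's large subunit, had normalized counts of 20760 to 21700 in Mock, 40590 to 47940 in d0, 26960 to 46880 in d3 and 113800 to 150500 in d28 samples. Its d3 value of 0.85 ± 0.250 did not pass the test (adjusted p by edgeR = 0.0544) although the samples did not overlap. Without d3 replicate 3 it was 1.05 by edgeR with an adjusted p of 3.41e-08. Leaving out 1 sample at a time took it from 0.68 to 1.05, with adjusted p by edgeR of up to 0.244. DESeq2 called the d3 value with all samples (adjusted p = 0.00466). At d0 MT-RNR2 was called with all samples, but its adjusted p by edgeR reached 0.155 when 1 sample was left out.

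The smallest rise from Mock to d28 was that of MT-TV, and the greatest that of MT-TL2, the second leucine tRNA gene. MT-TV had normalized counts of 35.9, 50.3 and 44.3 in Mock, 87.1, 90.8 and 59.6 in d0, 88.5, 82.2 and 57.1 in d3, and 131, 90.7 and 88.8 in d28 samples. The d28 samples overlapped d0, and the log2 fold change from Mock to d28 was 1.30 ± 0.172 (adjusted p by edgeR = 2.22e-11), but -0.09 (adjusted p = 0.717) with library sizes alone. For MT-TL2, with raw counts of 5, 13 and 11 in Mock and 331, 167 and 92 in d28 samples, it was 3.30 ± 0.211 (adjusted p = 3.58e-52). Leaving out 1 sample at a time took MT-TL2 from 2.99 to 3.54, and without Mock replicate 1 (2.99) or d28 replicate 1 (3.09) another gene rose more. Both genes are among the 7 enclosed tRNA genes. The range over all 36 genes was thus 1.30 to 3.30, with fold changes of 2.46 and 9.87 at its ends.

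The second set of comparisons asked how unevenly the genes moved among themselves. Here the library size was the summed count of the 37 genes, so that a gene moving with the whole mitochondrial genome has a log2 fold change of 0. Over the 15 rRNA and protein genes the log2 fold changes had an SD of 0.146 in d0 against Mock, 0.138 in d3 against Mock and 0.203 in d28 against Mock cells, and of 0.0187 in d3 against d0 cells. The median SD of a gene's log2 share between replicates was 0.0108 to 0.0298 in the 4 groups, with the greatest single value, 0.117, for MT-ATP8 in Mock. In d28 against Mock cells the fold relative to the total ran from 0.725 (MT-ND4L) to 1.23 (MT-ND3), which is small beside the common rise. On this scale the median of all tested entries was -1.16 in d0, -0.87 in d3 and -2.58 in d28 against Mock cells and 0.27 in d3 against d0 cells, so many entries were called lower against Mock and adjustment over all entries is lenient there.

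In d0 against Mock cells 8 of 36 genes were higher relative to the mitochondrial total (0.058% of all entries) and 6 lower (50.3%). In d3 against Mock cells the counts were 6 higher (0.0508%) and 5 lower (32.4%), and in d28 against Mock cells 14 higher (0.0834%) and 10 lower (85.8%). In d28 against d3 cells 9 were higher (0.0616%) and 9 lower (78.3%), and in d28 against d0 cells 10 (0.0616%) and 8 (68.3%). Between d3 and d0 cells 0 genes were called by edgeR in either direction (0.312%), 1 had an unadjusted p below 0.05, and DESeq2 called 0 (1.74% of the entries it tested). DESeq2's Wald test on the same scale called fewer genes against Mock, with 1 higher and 0 lower in d0 cells (0.0118% and 43.7% of the entries it tested), 0 either way in d3 cells (0.00945% and 29.1%), and 5 higher and 4 lower in d28 cells (0.0326% and 83.4%). The one at d0 was MT-ATP8, and those at d28 were MT-ND6, MT-ND3, MT-TW, MT-TE and MT-TS1, all higher, and MT-ND4L, MT-TV, MT-TG and MT-TL1, all lower. All other calls on this scale against Mock cells rest on edgeR's test alone.

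Both rRNA genes lost share in every group against Mock. MT-RNR1, the 12S rRNA gene of the small ribosomal subunit (GRCh38 chromosome MT, 648 to 1601), held 6.30%, 6.33% and 6.29% of mitochondrial counts in Mock, 5.66%, 5.67% and 5.74% in d0, 5.66%, 5.82% and 5.83% in d3, and 5.51%, 5.43% and 5.43% in d28 samples. Mock lay above all other samples, and d28 below all others. Relative to the total its log2 fold change was -0.15 ± 0.0204 (SE) at d0, -0.13 ± 0.0204 at d3 and -0.21 ± 0.0204 at d28 (adjusted p by edgeR = 2.19e-10, 1.49e-07 and 2.21e-23). MT-RNR2 (1671 to 3229) held 12.2% to 12.3% in Mock, 11.1% to 11.4% in d0, 11.2% to 11.6% in d3 and 11.5% to 11.8% in d28 samples. Its log2 fold change was -0.12, -0.10 and -0.07 in the same order, and from d0 to d28 it rose by 0.04 relative to the total (adjusted p by edgeR = 0.00329), while MT-RNR1 fell by 0.06 (adjusted p = 0.00555). The MT-RNR2 rise was not called without d0 replicate 1 (0.0933). DESeq2 called neither rRNA gene against Mock cells, with adjusted p of 0.238, 0.32 and 0.0629 for MT-RNR1 and 0.358, 0.446 and 0.526 for MT-RNR2.

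Among the protein genes, MT-ND4L, MT-ND1 and MT-CO1 were called lower relative to the total at d0, d3 and d28, each against the shared Mock samples. MT-ND4L (10470 to 10766), whose start abuts the arginine tRNA gene and whose end overlaps MT-ND4, changed most. Its share was 1.89%, 1.80% and 1.76% in Mock, 1.58%, 1.51% and 1.57% in d0, 1.51%, 1.57% and 1.65% in d3, and 1.36%, 1.30% and 1.29% in d28 samples. The Mock samples lay above and the d28 samples below all others. The log2 fold changes against Mock were -0.22 ± 0.0409, -0.20 ± 0.0409 and -0.46 ± 0.0409 (SE) at d0, d3 and d28, with adjusted p by edgeR of 3.18e-06, 0.000109 and 7.99e-28. DESeq2 called the d28 value only, with adjusted p of 0.101, 0.159 and 0.000125. For MT-ND1, another subunit of complex I, which follows the 16S rRNA gene and a leucine tRNA gene, the values were -0.10, -0.10 and -0.21, and its d3 samples (5.57% to 6.12%) reached into the Mock range (6.11% to 6.39%). For MT-CO1 they were -0.03, -0.06 and -0.13, the d0 value losing its call when any sample but Mock replicate 2 was left out (adjusted p by edgeR = 0.0617 to 0.173), with shares of 11.2% to 11.4% in Mock and 10.3% to 10.4% in d28 samples.

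MT-ND6, MT-ATP8, MT-ND3, MT-CO2, MT-ND5 and MT-ND4 were called higher relative to the total by edgeR at d0, d3 and d28, each against the shared Mock samples. MT-ND6, the complex I subunit encoded on the light strand (14149 to 14673), held 2.79%, 2.76% and 2.68% in Mock, 3.25%, 3.23% and 3.24% in d0, 3.30%, 3.15% and 3.27% in d3, and 3.19%, 3.24% and 3.26% in d28 samples. Its 9 samples outside Mock overlapped among themselves and lay above Mock, and the log2 fold change was 0.24 ± 0.0285 (SE) on each of the 3 days (adjusted p by edgeR = 5.62e-14, 1.12e-13 and 8.26e-16). DESeq2 did not call its d0 and d3 values (adjusted p = 0.0635 and 0.0805) but called that of d28 (0.0398). MT-ATP8 (8366 to 8572), whose end overlaps MT-ATP6, went from 0.858% to 1.00% in Mock to 1.17% to 1.18% in d0, 1.07% to 1.23% in d3 and 1.07% to 1.10% in d28 samples. Its values were 0.32, 0.30 and 0.21, and among the rRNA and protein genes it varied most between Mock samples. MT-ND3, a complex I subunit between the glycine and arginine tRNA genes, had 0.15, 0.16 and 0.30. For MT-CO2, the complex IV subunit that takes up electrons from cytochrome c, the values were 0.13, 0.10 and 0.15, for MT-ND5 0.08, 0.09 and 0.13, and for MT-ND4, a membrane subunit of complex I, 0.08, 0.05 and 0.05.

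The remaining protein genes changed little in share. MT-CO3, another core subunit of complex IV, was called at d28 only, with 0.13 ± 0.0223 (adjusted p by edgeR = 3.86e-08) against 0.04 and 0.03 at d0 and d3. MT-ATP6, the ATP synthase subunit of the proton channel, had 0.01, -0.01 and -0.08, the last of which passed the test (adjusted p = 0.00609). MT-CYB had -0.02, 0.00 and -0.02 and MT-ND2, a complex I subunit, -0.01, -0.01 and 0.02, and none of these passed. Shares of MT-CYB were 9.12% to 9.31% in Mock and 9.01% to 9.11% in d28 samples.

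**Figure D4:**
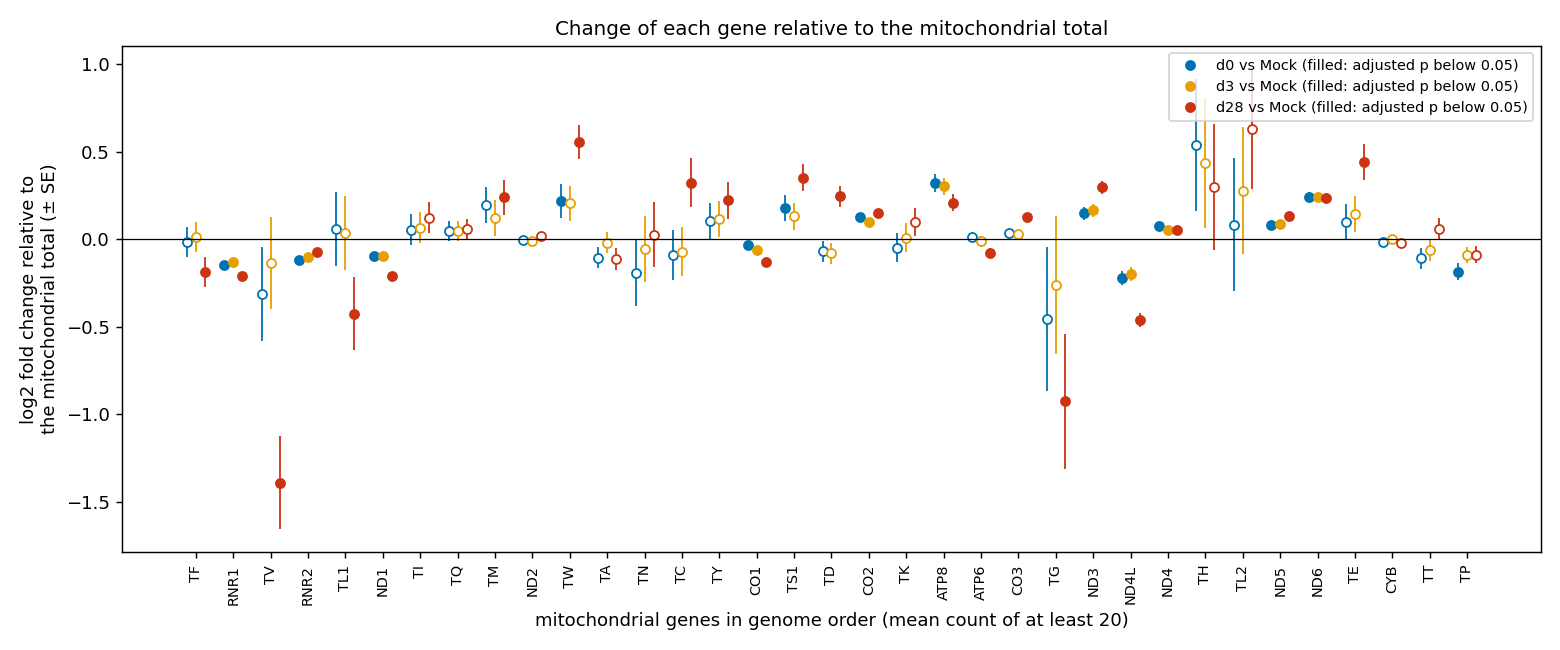
Log2 fold change relative to the mitochondrial total (± SE) of each gene with a mean count of at least 20, in genome order, for d0, d3 and d28 against the shared Mock samples. MT-ND6 is at 0.24 on each of the 3 days, MT-ND4L falls to -0.46 and MT-TV to -1.39 at d28, and the bars are widest for the enclosed tRNA genes with few counts.

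The tRNA genes differed most at d28. In d3 against Mock cells 0 of the 21 tested tRNA genes were called relative to the total by edgeR (0.0508% of all entries higher and 32.4% lower), with 1 at an unadjusted p below 0.05, and in d0 against Mock cells 3 were, MT-TW and MT-TS1 higher (0.058% of all entries) and MT-TP lower (50.3%). The MT-TS1 call was lost without any 1 sample (adjusted p up to 0.151) and that of MT-TW without Mock replicate 1 or 2 or d0 replicate 1 or 2 (up to 0.235), whereas MT-TP kept its call (up to 0.0103). In d28 against Mock cells 7 were higher (0.0834% of all entries) and 4 lower (85.8%). MT-TV fell most, by 1.39 ± 0.265 on the log2 scale (adjusted p by edgeR = 3.08e-07), with shares of 0.0205%, 0.0294% and 0.0251% in Mock, 0.0221%, 0.0216% and 0.0167% in d0, 0.0220%, 0.0230% and 0.0236% in d3, and 0.0103%, 0.00929% and 0.00894% in d28 samples. Its d28 samples lay below all others, while Mock, d0 and d3 overlapped. DESeq2 gave an adjusted p of 1.72e-07. MT-TG, with 7 to 13 counts in Mock, had -0.93 ± 0.386 (adjusted p = 0.0199), and its call was lost without Mock replicate 1 (0.164) or d28 replicate 2 (0.056).

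MT-TW, the tryptophan tRNA gene between MT-ND2 and the tRNA genes of the light strand, rose most in share among the called tRNA genes. It held 0.199%, 0.199% and 0.254% in Mock, 0.266%, 0.254% and 0.239% in d0, 0.259%, 0.254% and 0.237% in d3, and 0.311%, 0.325% and 0.321% in d28 samples. The d28 samples lay above all others and Mock replicate 3 inside the range of d0 and d3. From Mock to d28 the log2 fold change relative to the total was 0.56 ± 0.0973 (adjusted p by edgeR = 2.72e-08, DESeq2 0.00023), and leaving out 1 sample at a time gave 0.49 to 0.68. MT-TE, the glutamate tRNA gene of the light strand beside MT-ND6, had 0.44 ± 0.102 (adjusted p = 2.78e-05), with 0.195% to 0.211% in Mock and 0.268% to 0.281% in d28 samples. MT-TS1, the other serine tRNA gene, had 0.35, and MT-TC, MT-TD, MT-TM and MT-TY, the cysteine, aspartate, methionine and tyrosine tRNA genes, had 0.32, 0.25, 0.24 and 0.22. Leaving out 1 sample kept the calls of MT-TE, MT-TS1 and MT-TD, while that of MT-TM was lost without Mock replicate 2 (adjusted p by edgeR = 0.104) or d28 replicate 3 (0.0914). MT-TC lost its call without any 1 sample but Mock replicate 1 or d28 replicate 3 (up to 0.0985), and MT-TY without any but d28 replicate 1 (up to 0.108). MT-TL2 (0.63 ± 0.344) and MT-TH (0.30 ± 0.359), the histidine tRNA gene, did not pass (adjusted p = 0.077 and 0.424).

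Enclosed tRNA genes did not move as a unit at d28. Of the 5 with a mean count of at least 20, MT-TV, MT-TG and MT-TL1 were lower relative to the total (-1.39, -0.93 and -0.43) and MT-TH and MT-TL2 had values above 0 without passing. MT-TL1, the first leucine tRNA gene, between the 16S rRNA gene and MT-ND1, held 0.0387% to 0.0400% in Mock and 0.0284% to 0.0298% in d28 samples, and its call (adjusted p by edgeR = 0.0476) was lost without any 1 of the 6 samples (0.0667 to 0.11). MT-TF, the phenylalanine tRNA gene before the 12S rRNA gene, had -0.19 ± 0.0839 (adjusted p by edgeR = 0.0301), and its call was lost without any 1 of these samples but Mock replicate 1 (0.0513 to 0.0902). The genes at the start of the heavy strand map run from MT-TF through MT-RNR1, MT-TV, MT-RNR2 and MT-TL1 to MT-ND1. All of them were called lower by edgeR at d28 against Mock cells, where 85.8% of all entries were called lower. DESeq2 called MT-TV and MT-TL1 only, and the genes were picked out as a run after their values had been seen.

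**Figure D5:**
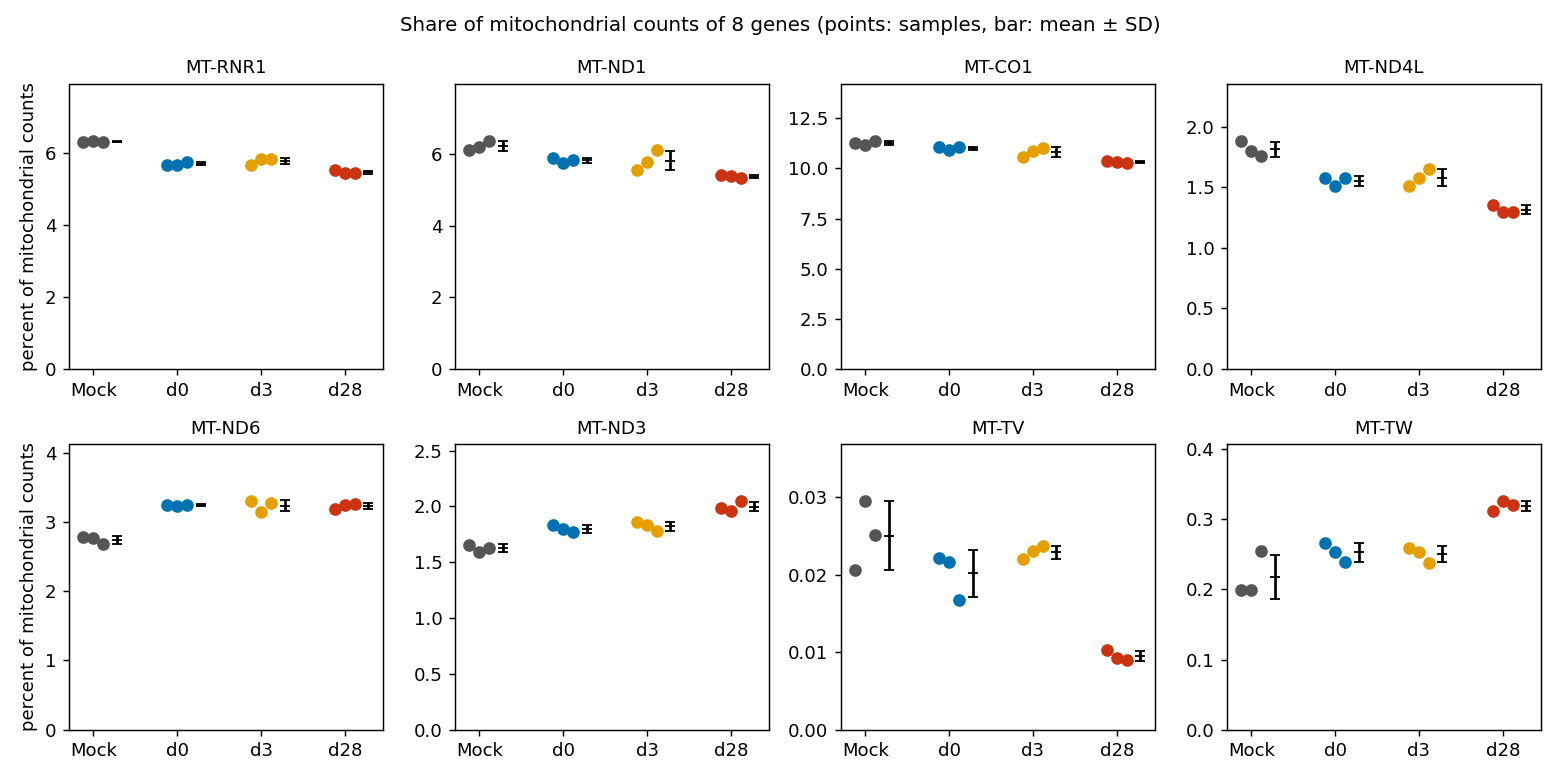
Share of mitochondrial counts (percent) of 8 genes, with a point per sample and the mean ± SD of each group. MT-RNR1, MT-ND1, MT-CO1 and MT-ND4L have their highest group mean in Mock, MT-ND6 is higher in all 9 samples outside Mock at 3.15% to 3.30%, and MT-TV drops to 0.00894% to 0.0103% at d28.

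Copies of mitochondrial genes that lie in the nuclear genome followed the mitochondrial counts closely as a sum, but single copies did not. The 388 entries with such symbols summed to 9.02 to 9.51 counts per 100 mitochondrial counts in every sample, while their share of all counts went from 2.41% in Mock replicate 2 to 6.38% in d28 replicate 1. Of the 72 copies that passed the filter, 22 were higher (0.845% of all entries) and 5 lower (0.609%) in d28 against Mock cells on the TMM scale. Their log2 fold changes ran from -6.64 to 5.46 there, with a median of 1.81. How reads matching both a mitochondrial gene and a nuclear copy were assigned is not given in the sources used here, so the members' counts are uncertain by what such copies took up.

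Few genes were called on a broad list of nuclear genes for the maintenance and transcription of mitochondrial DNA. Their SEs against Mock cells ran from 0.145 to 0.527 on the log2 scale, so few calls do not show that the genes were unchanged. Of the 36 genes on the list, all tested, 0 were called in d0 against Mock cells by edgeR (0.609% of all entries in either direction), with 4 at an unadjusted p below 0.05. In d3 and in d28 against Mock cells 1 was called lower and 0 higher, where 0.439% and 0.609% of all entries were lower. That gene was SLC25A4, the ADP/ATP carrier of the inner mitochondrial membrane, with log2 fold changes of -1.15, -1.13 and -1.20 in d0, d3 and d28 cells (SE 0.320, 0.287 and 0.286, adjusted p by edgeR = 0.0517, 0.0115 and 0.00485). TFAM, which packs mitochondrial DNA and starts its transcription, had 0.64 ± 0.187, 0.49 ± 0.177 and 0.26 ± 0.181 without passing (adjusted p = 0.0854, 0.177 and 0.585). The list's medians were 0.05, 0.16 and 0.06, beside -0.00165, 0.0278 and 0.0322 over all entries.

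Replicates of a group differed in their mitochondrial profile, most in d3 cells. A chi-square per degree of freedom over the genes was 0.901 to 1.80 between Mock or d0 replicates, 2.35 to 8.37 between d28 replicates and 3.96 to 15.0 between d3 replicates, the highest between replicates 1 and 3. This measure grows with depth, and over all other entries the values were 1.05 to 1.28. The median SD of log2 share between replicates, over the 15 rRNA and protein genes, was 0.017 in Mock and 0.0108 in d0 cells. It was 0.0298 in d3 and 0.0158 in d28 cells, so by SD d28 replicates did not differ more than Mock replicates. Counting noise widens this SD more in Mock, with a mean of 115000 mitochondrial counts, than in d28 cells, with 1500000. Neither measure therefore settles whether d28 replicates differed more than Mock replicates. For d0 replicates 2 and 3 the mitochondrial profile agreed within sampling noise, at 0.901, but the other entries did not, at 1.07 over 16582 entries, and they were counted as separate samples.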

How the data were processed

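ATAC-Seq was performed by the authors on nuclei of HEK293T cells, and they deposited raw read counts for 52889 gene entries in a single table, whole numbers without normalization. The submitters' processing notes name bcl2fastq, Bowtie2, HTSeq and GRCh38. The read shift for the transposase, duplicate removal, strand setting and treatment of reads over more than 1 gene are not given in the sources used here.

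Samples were grouped by their labels. The members and lists were chosen with earlier results of these data known. The 27579 entries whose normalized counts averaged more than 2 in 1 or more groups were tested with edgeR 4.0.16 in R 4.3.3, by its quasi-likelihood test on all 12 samples and Benjamini-Hochberg adjustment over all tested entries at 0.05, with TMM factors or with the mitochondrial total as library size. DESeq2 1.42.0 served as an alternative, with the others given in the closing section. Genes were matched to RefSeq (GRCh38.p14) by symbol, 37 of 37, for position and length, and strand was assigned from the known gene map. All rRNA and protein genes were described, with the 3 tRNA genes of highest and of lowest mean count and, per comparison, the 3 highest and 3 lowest changes relative to the total among genes with a mean count of at least 20. Further genes were named after their values were seen. The procedure was tested on simulated counts for d28 against Mock. On the TMM scale it recovered 38% of 2-fold and 92% of 4-fold changes set in entries with a mean count of at least 10. Relative to the mitochondrial total it called 6 of 8 members changed 1.25-fold and 2 of 28 unchanged members. With no change simulated, 1 of 36 members was called on that scale. Each setting was drawn once, with the same spread set for all members. Real members differed in spread, with an SD of log2 share of 0.117 for MT-ATP8 in Mock against a median of 0.017. The simulation therefore cannot give the rate of false calls in the real data. Same-numbered replicates were checked for pairing: the mean correlation of their deviations was -0.0719 to 0.0309 over 8275 entries, so the numbers were not taken to pair samples. Figures were drawn with matplotlib 3.10.9. No sequence of the mitochondrial genome was used here.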

Additional observations from a re-analysis of the deposited data

Results flagged for a closer look

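A few tRNA genes and MT-ATP6 took opposite directions at different days relative to the mitochondrial total, and the difference between those days itself passed edgeR's quasi-likelihood test. Between d28 and d0 cells, whose changes against the shared Mock samples had opposite signs, MT-TL1 differed by a log2 fold change of -0.48, MT-ATP6 by -0.0898, MT-TT, the threonine tRNA gene, by 0.17, MT-TD by 0.32 and MT-TC by 0.41. Between d28 and d3 cells MT-TL1 differed by -0.46, MT-TF by -0.20, MT-TD by 0.33 and MT-TC by 0.39. The d0 and d3 changes of these genes against Mock were small, so the opposite sign rests on values near 0. MT-TL1 was no longer called without d28 replicate 2 (adjusted p by edgeR = 0.0557 against d0 and 0.0578 against d3 cells) and, against d0, without d0 replicate 1 (0.0728) or 3 (0.0559). MT-TT was not called without d0 replicate 1 (0.051) or d28 replicate 1 (0.0614), nor MT-TF without d28 replicate 1 (0.0733) or d3 replicate 3 (0.0735). DESeq2 did not call the differences of MT-ATP6, MT-TT and MT-TF (adjusted p = 0.474, 0.214 and 0.141). Groups of 3 samples were not tested for single outlying samples, and d3 replicate 3 was singled out on sight of its mitochondrial share.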

How the results depend on the processing

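On the TMM scale, the count of genes called changed by less than 1.5 times under DESeq2, RLE factors, library sizes only, factors without mitochondrial sequences, both other filters and fits on 6 samples. Leaving out 1 sample at a time gave 29 to 34 genes at d0, 23 to 34 at d3 and 35 to 36 at d28 against Mock cells, 0 for d3 against d0, and 33 to 36 for d28 against d3 and against d0 cells. Of all 27579 tested entries these fits called, in either direction, 113 to 139, 177 to 292 and 217 to 332 against Mock cells. For d3 against d0 they called 90 to 199 entries, for d28 against d3 76 to 95 and for d28 against d0 cells 164 to 311. With 6 samples only, 25 genes were called at d3 against Mock cells, beside 296 of all entries in either direction. Library sizes alone moved the median of all entries to -0.45, -0.33 and -1.31 at d0, d3 and d28, and that of the members to 0.72, 0.57 and 1.35, with MT-TV at -0.0908 at d28. In the fit with the replicate block 34, 34 and 35 genes were called against Mock cells, beside 156, 325 and 371 of all entries in either direction. The block moved no count of genes by over 1.5 times.

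Relative to the mitochondrial total, the counts depended on the test and the filter, and the cause was not tested. DESeq2 called 1 higher and 0 lower at d0, 0 and 0 at d3, 5 and 4 at d28 against Mock cells, 4 and 3 for d28 against d3, and 4 and 2 for d28 against d0 cells. Over all entries, in either direction, it called 11122, 6159 and 23022 against Mock cells. For d28 against d3 it called 19077 entries and for d28 against d0 cells 16036. With no filter, which adds entries to the adjustment, edgeR called 4 higher at d0, 3 higher and 3 lower at d3, 6 lower at d28 against Mock cells, 4 and 4 for d28 against d3, and 5 and 5 for d28 against d0 cells. Of all 52889 entries it then called 11532, 6657 and 25275 in either direction against Mock cells. For d28 against d3 these were 21727 entries and for d28 against d0 cells 17458. Leaving out 1 sample at a time gave, as higher and lower, 6 to 7 and 5 to 6 at d0, 6 to 9 and 5 to 5 at d3, 11 to 13 and 7 to 10 at d28 against Mock cells, 8 to 11 and 7 to 9 for d28 against d3, 7 to 11 and 6 to 7 for d28 against d0, and 0 for d3 against d0 cells. Of all 27579 entries these fits called, in either direction, 9961 to 12891, 4129 to 13898 and 21823 to 23675 against Mock cells. For d28 against d3 they called 19302 to 21411 entries, for d28 against d0 15765 to 18530 and for d3 against d0 cells 7 to 605. Leaving out 1 sample at a time, values that had not been called changed sign. In d0 against Mock MT-ND2 ran from -0.0152 to 0.00146 and MT-ATP6 from -0.000476 to 0.0203, in d3 against Mock MT-TV ran from -0.264 to 0.00848, MT-TL2 from -0.0472 to 0.511, MT-CYB from -0.0044 to 0.0119 and MT-ATP6 from -0.0221 to 0.00736, and in d3 against d0 cells MT-TL2 ran from -0.0328 to 0.361. Without the rRNA genes in the total, MT-ATP6 at d0 was -0.0144, MT-CYB at d3 -0.0217 and MT-ND2 at d28 -0.00627, and with a median of ratios over the members MT-CYB at d3 was -0.00558 and MT-ND2 at d28 -0.0125. As a share of the total without rRNA genes, by construction, protein genes held 91.8%, 92.1%, 91.9% and 91.4% in Mock, d0, d3 and d28, and tRNA genes 8.25%, 7.93%, 8.13% and 8.62%.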
